A study of Mus musculus with 26 samples.

Results

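The 10 genes described here control the passage of a mouse stem cell from G1 into S phase: the D-type cyclins Ccnd1, Ccnd2 and Ccnd3, the E-type cyclins Ccne1 and Ccne2, the CDK inhibitors Cdkn1a, Cdkn1b and Cdkn2b, and the transcription factor genes Myc and Mycn. They were taken as a named list, and all 10 were found among the 15646 genes with RNA values and among the 19022 promoter fragments (baits) that appear in the contact lists. RNA-seq and promoter-capture Hi-C (PCHi-C) were compared in 3 pluripotent states, to ask how promoter contacts and transcription differ between them. Wild-type embryonic stem cells (WT ESCs) were the E14Tg2a line, and Nanog-/- ESCs were a line derived from it, RCNβH-B(t), in which both Nanog alleles are disrupted. Both ESC types grew on gelatin in serum with LIF. Epiblast stem cells (EpiSCs) were embryo-derived 129S2 cells kept on fibronectin in N2B27 with Activin A and bFGF, so that genetic background and medium differ together with state and cannot be told apart from it. The strain field of the labels gives C57BL/6 for all samples, which does not match the growth notes. By the labels, WT ESCs gave 3 RNA samples and 5 PCHi-C lanes, EpiSCs 4 and 2, and Nanog-/- ESCs 3 and 5. The study states that contacts were called from 2 biological replicates per cell type, so the lanes of an ESC type are not all separate replicates. Levels and contacts are deposited as 1 number per state, so no value below has an SD and no difference was tested here. The fold changes and p-values that the authors computed from the RNA samples are in the same table and were not used.

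D-type cyclins bind CDK4 and CDK6, which phosphorylate the retinoblastoma protein, and E-type cyclins bind CDK2 and complete that step, releasing E2F factors to switch on S phase genes. Cdkn2b (p15) blocks the cyclin D kinases, whereas Cdkn1a (p21) and Cdkn1b (p27) bind cyclin-CDK2 complexes. MYC and MYCN are bHLH proteins that pair with MAX on E-box DNA and drive growth. Mouse ESCs are known for a short G1 phase, with high cyclin E and little inhibitor protein.

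PCHi-C reads contacts between HindIII restriction fragments, so each contact is a stretch of DNA with fixed ends. All 153 fragments involved here (the 10 baits and their partners) had a HindIII site at both ends in the GRCm38 assembly. Short partner fragments of Ccnd1, Ccnd2 and Mycn, the members with the most contacts, are shown whole, on the plus strand, to give the unit that was counted. Capitals mark what is left of the cut HindIII site at each end. The Ccnd1 partner (chr7:145229741-145229990, 250 bases, in a Tpcn2 intron) was in contact in EpiSCs, the Ccnd2 partner (chr6:127390713-127390911, 199 bases, intergenic) in all 3 states, and the Mycn partner (chr12:12440161-12440428, 268 bases, intergenic) in EpiSCs.
Ccnd1 partner: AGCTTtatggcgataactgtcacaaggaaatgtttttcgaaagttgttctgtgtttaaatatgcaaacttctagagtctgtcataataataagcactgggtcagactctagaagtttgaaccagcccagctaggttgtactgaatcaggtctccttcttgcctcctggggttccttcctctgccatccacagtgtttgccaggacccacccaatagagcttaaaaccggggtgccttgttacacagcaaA
Ccnd2 partner: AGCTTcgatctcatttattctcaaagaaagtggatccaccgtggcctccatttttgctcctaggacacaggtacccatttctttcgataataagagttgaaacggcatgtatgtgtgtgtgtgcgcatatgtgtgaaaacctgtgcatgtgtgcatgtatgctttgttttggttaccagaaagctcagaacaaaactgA
Mycn partner: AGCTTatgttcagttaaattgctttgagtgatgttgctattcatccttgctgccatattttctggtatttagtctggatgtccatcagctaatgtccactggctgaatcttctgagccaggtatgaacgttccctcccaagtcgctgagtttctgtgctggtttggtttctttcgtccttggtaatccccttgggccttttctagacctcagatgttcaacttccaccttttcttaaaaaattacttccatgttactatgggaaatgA
The 6-base E-box CACGTG, which reads the same on both strands, was in none of these 3 fragments. Repeats covered 42.2% of the Ccnd2 fragment, 7.46% of the Mycn fragment and 0.0% of the Ccnd1 fragment.

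Promoter sequences of 6 members (8 start sites, the 250 bases before each) were available from RefSeq on GRCm38.p6, and none was available for Ccnd1, Ccnd2, Ccne2 and Myc. They were searched on both strands for CACGTG and for the E2F motifs TTTCCCGC, TTTGGCGC, TTTCGCGC and TTTGCCGC. An E-box was in none of the 8 windows, against 6.02% of all 32851 promoter windows of this length. An E2F motif was in 1 window, that of Mycn, against 1.86% of all windows. The Mycn window held 3 matches, of which the first and second overlap on opposite strands. The promoters of Mycn and Cdkn2b are shown 5′ to 3′ on the minus strand, from which both genes are read, up to the base before the annotated gene. Mycn (chr12:12941915-12942086) is shown for its E2F matches, in capitals, and Cdkn2b (chr4:89311040-89311282) for a HindIII site, in capitals, at which its bait fragment ends.
Mycn promoter: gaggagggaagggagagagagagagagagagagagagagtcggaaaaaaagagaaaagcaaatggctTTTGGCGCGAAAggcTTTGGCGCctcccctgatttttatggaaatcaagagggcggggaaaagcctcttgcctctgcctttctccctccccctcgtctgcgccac
Cdkn2b promoter: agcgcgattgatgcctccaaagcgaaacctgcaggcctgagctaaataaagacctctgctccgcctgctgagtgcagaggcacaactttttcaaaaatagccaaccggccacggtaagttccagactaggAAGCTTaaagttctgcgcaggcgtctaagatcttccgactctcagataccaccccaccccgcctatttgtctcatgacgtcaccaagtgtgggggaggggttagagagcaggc
The bait of Cdkn2b therefore ended inside its promoter. The bait of Ccnd2 (chr6:127147568-127151588) did not hold the outermost annotated start of the gene at position 127152193, and that of Ccnd3 held the outermost of its 2 RefSeq starts. The other baits held the outermost start of their gene.

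RNA levels are given as RPKM, reads scaled to gene length and library size, in the order WT ESCs, EpiSCs, Nanog-/- ESCs. EpiSC medians ran higher across the table, so they were divided by the median EpiSC to WT ratio, 1.89, over 9077 genes. Differences are in log2(RPKM + 1), and a gene is counted as higher or lower from a 2-fold difference on. Nanog itself read 418 RPKM in WT ESCs, 22.3 in Nanog-/- ESCs and 191 (scaled) in EpiSCs. The column read here as Nanog-/- ESCs is headed BT12, a name that the sample labels do not use. It was matched through the comparison names in the design notes of the series and because the other columns name ESC and Epi, so that each Nanog-/- RNA value rests on this match. In EpiSCs, 8 of 8 naive markers with a value (of 11 listed) were lower than in WT ESCs and 5 of 9 primed markers higher. The other primed markers stayed within 2-fold, down to log2 -0.55 for Dnmt3b. Of 4 general pluripotency markers 1, Sox2, was lower in EpiSCs (log2 -2.43). In Nanog-/- ESCs 3 of 8 naive markers, Nanog included, and 3 of 9 primed markers were lower. Summed RPKM of 4 fibroblast markers was 43.9, 203 and 52.0, and that of 5 primitive endoderm markers 3.66, 17.9 and 66.9; all 5 of the latter were higher in Nanog-/- ESCs. The part of such cells in the differences below was not tested, and in bulk samples fewer cells of a type and less RNA per cell cannot be told apart.

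EpiSCs differed from WT ESCs by 2-fold or more in 5 of the 10 genes. Ccnd2, Cdkn1a and Cdkn2b were higher, and Ccne1 and Mycn were lower. Across the 11066 genes with 1 RPKM or more in any state, all 10 members among them, 14.8% were higher and 13.7% lower in EpiSCs, 28.4% in all. The members' median difference was 0.36, against 0.03 over all genes. Without the scaling, 42.5% of genes were higher and 8.17% lower, the median over all genes was 0.85, and 8 members passed 2-fold. Ccnd1, Ccne2, Cdkn1b and Myc then counted as higher and Mycn no longer as lower (-0.92), while its direction stayed.

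Nanog-/- ESCs differed from WT ESCs by 2-fold or more in 2 of the 10 genes, with Myc higher and Ccnd1 lower. Across all genes 2.39% were higher and 1.92% lower, 4.3% in all. The members' median difference was -0.06, against 0.07 over all genes.

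Among the D-type cyclins, Ccnd2 had the widest range. It read 10.4, 81.0 and 6.90 RPKM, a 7.16-fold difference between EpiSCs and WT ESCs (log2 2.84). In WT ESCs it stood above 62.7% of genes and in EpiSCs above 93.8%. Ccnd1 encodes cyclin D1 and read 86.4, 105 and 27.0 RPKM. Its EpiSC level lay close to that of WT ESCs (log2 0.27), and its Nanog-/- level was lower (log2 -1.64, 3.12-fold). Ccnd3 read 158, 108 and 129 RPKM and stayed within 2-fold in both comparisons, so that it was the highest of the 3 D-type cyclins in each state, although by a small margin over Ccnd1 in EpiSCs.

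The E-type cyclins differed from each other. Ccne1 was the highest of the 10 genes in WT ESCs, at 194 RPKM, and in Nanog-/- ESCs, at 302 RPKM, but read 47.8 RPKM in EpiSCs, lower than in WT ESCs by 2-fold or more (log2 -2.00). Ccne2 read 11.4, 15.9 and 11.5 RPKM. The difference between Nanog-/- and WT ESCs was 0.01 for Ccne2 and 0.63 for Ccne1, both under 2-fold.

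All 3 CDK inhibitors among the 10 genes had their highest level in EpiSCs, which did not hold for every other inhibitor gene (below). Cdkn1a, a direct target of p53, read 58.7, 150 and 54.1 RPKM (log2 1.34 in EpiSCs) and was the highest of the 10 genes there. Cdkn2b read 3.43, 15.6 and 7.71 RPKM (log2 1.91 in EpiSCs), the lowest level of the 10 genes in WT ESCs. Its difference in Nanog-/- ESCs (log2 0.98) fell just short of 2-fold and passed it with a pseudocount of 0.1 RPKM (log2 1.15). Cdkn1b read 23.1, 37.3 and 23.8 RPKM and stayed within 2-fold.

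The 2 Myc genes had different orders. Myc read 24.2, 29.2 and 72.2 RPKM, with its highest level in Nanog-/- ESCs (log2 1.54, 2.90-fold). Mycn read 164, 45.6 and 120 RPKM, 3.53-fold lower in EpiSCs (log2 -1.82) and within 2-fold in Nanog-/- ESCs (log2 -0.45). Mycn was thus above Myc in each state, by the narrowest margin in EpiSCs.

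**Figure D1:**
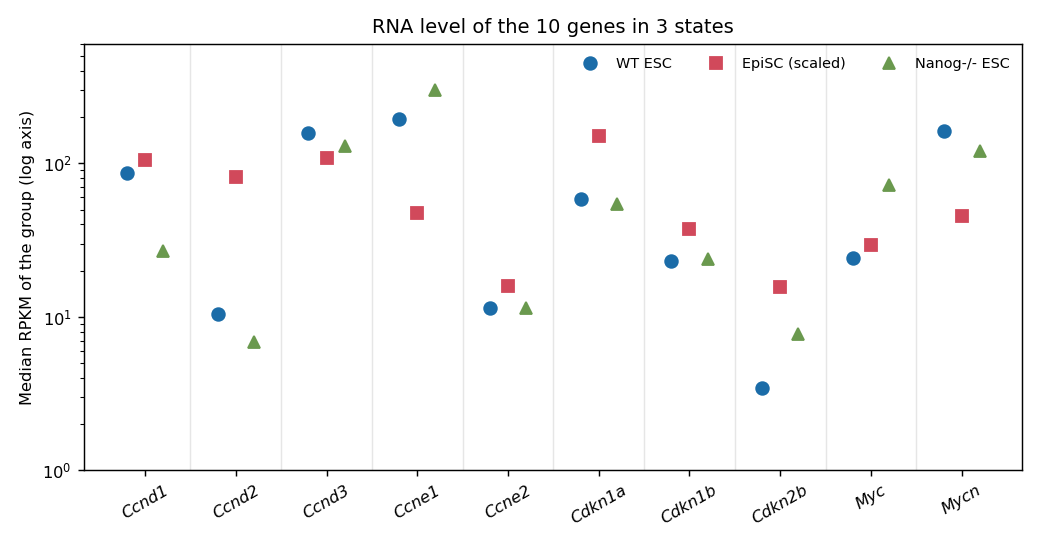
Median RPKM (log axis) of each of the 10 genes (x axis) in WT ESCs (circles), EpiSCs after scaling (squares) and Nanog-/- ESCs (triangles), 1 point per state with no error available. Ccnd2 lies at 81.0 in EpiSCs against 10.4 and 6.90 in the ESC types, and Ccne1 at 47.8 against 194 and 302.

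**Figure D2:**
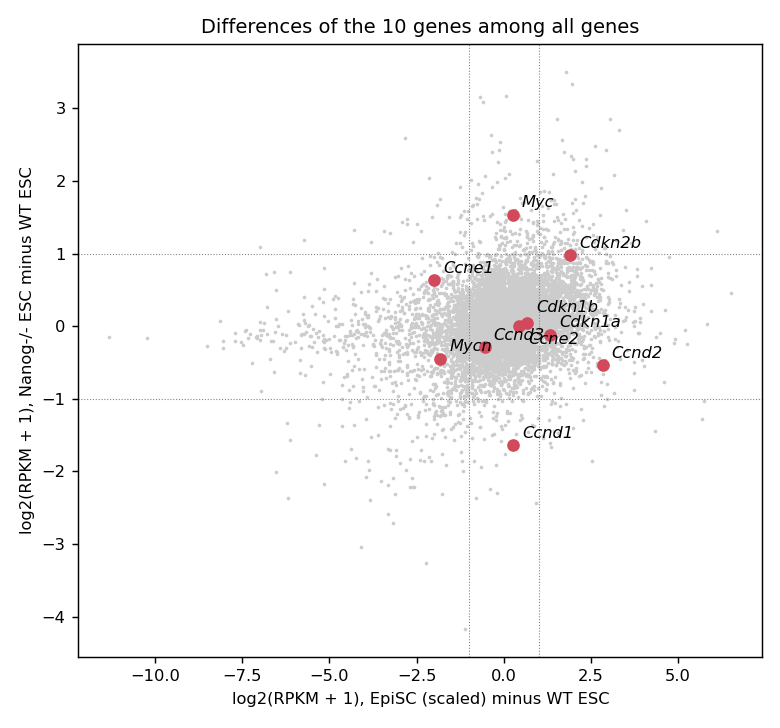
Difference in log2(RPKM + 1) from WT ESCs for EpiSCs (x axis, scaled) and Nanog-/- ESCs (y axis), with 11066 genes in grey, the 10 members in red and dotted lines at 2-fold. Both axes share the WT ESC values, so the cloud's shape is no result. Ccnd2 lies far to the right at 2.84, Ccne1 and Mycn to the left, Myc high at 1.54 and Ccnd1 low at -1.64.

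The partners and targets of these genes were counted in the same way. For all genes, the shares were 14.8% higher and 13.7% lower in EpiSCs, and 2.39% higher and 1.92% lower in Nanog-/- ESCs. Only list genes with RNA values are counted: 19 of 23, 3 of 4, 8 of 9, 5 of 11 and 7 of 10, in the order below. Cdk4, Cdk6 and Trp53 were among those without a value. Of 19 genes for CDKs, other cyclins, pocket proteins and E2Fs, 1 was higher in EpiSCs (E2f6, an E2F repressor, log2 1.61) and 1 lower (Ccnb1, the mitotic cyclin B1, log2 -1.55), and none passed 2-fold in Nanog-/- ESCs. None of 3 other CDK inhibitor genes passed in either comparison. Cdkn2a, the neighbour of Cdkn2b, read 9.23, 15.6 and 14.6 RPKM. Cdkn1c read 37.6, 23.0 and 35.3 RPKM and Cdkn2c 0.99, 0.90 and 1.12, both lowest in EpiSCs. Of 8 MYC network genes, 1 was higher in EpiSCs (Mxd4, a MAX-binding repressor, log2 1.83), and Max itself read 90.2, 53.2 and 99.9 RPKM. Of 5 textbook MYC targets, 2 were lower in EpiSCs, Npm1 (log2 -1.41) and Srm (log2 -1.44), and none passed in Nanog-/- ESCs, where few genes of any kind did. Of 7 p53 pathway genes, Phlda3 was higher (log2 1.14) and Pmaip1 lower (log2 -2.77) in EpiSCs, while Pmaip1 was higher in Nanog-/- ESCs (log2 1.41).

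The genes nearest to 3 members over the 3 log2 levels were also listed, with the Euclidean distance as the measure. Nearest to Ccnd2 were Tspan6 (0.23), Fzd2 (0.46) and Gpc4 (0.55). Nearest to Myc were Dnmt3a (0.42), Rab31 (0.46) and Isoc2a (0.54), and nearest to Mycn were Mtf2 (0.09), Ash2l (0.31) and C80913 (0.39). Within a distance of 0.5 lay 2, 2 and 12 genes, respectively. With 3 points per gene, this is a description only.

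Each contact list gives the read pairs that join a bait to another fragment and a CHiCAGO score, which weighs how far those reads exceed what is usual at that distance. Only contacts with a score of 5 or more are listed, so that a missing contact is one under this score, not one without reads. The WT ESC list holds 100492 pairs, the EpiSC list 87369 and the Nanog-/- list 74931, with 2177383, 1651422 and 1440356 read pairs. In the Nanog-/- list the median distance was 76.1 kb, against 137 and 136 kb in the other lists. In WT ESCs the 10 promoters had 71 contacts, against 101 for EpiSCs and 44 for Nanog-/- ESCs, 143 different ones in all. Of these, 22 were in all 3 lists, 55 were in the EpiSC list alone, 23 in that of WT ESCs alone and 14 in the Nanog-/- list alone. These were 54.5% of the EpiSC contacts of the members, against 46.7% of all EpiSC pairs, 32.4% of those in WT ESCs, against 43.5%, and 31.8% of those in Nanog-/- ESCs, against 34.9%.

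Contact numbers were set apart by a 2-fold difference with 5 or more contacts in the larger list. In EpiSCs, 5 members could be compared, of which 2 (Myc and Mycn) had more contacts than in WT ESCs and none fewer, against 14.6% with more and 28.8% with fewer over 9549 baits. In Nanog-/- ESCs, 5 members could be compared, of which 1 (Ccne1) had more and 2 (Ccnd2 and Mycn) fewer, against 6.25% and 30.3% over 8831 baits. Myc in EpiSCs (8 against 0), Ccne1 in Nanog-/- ESCs (7 against 2) and Mycn in Nanog-/- ESCs (2 against 6) could be compared only through the list in which they are high, so the minimum itself fixed the direction of these 3. With all lists held to the 74931 highest scores, the totals were 49, 90 and 44. Members with more contacts in EpiSCs were then 4 of 5, with Ccnd1 (22 against 11) and Ccne2 (7 against 3) added, against 20.2% of all baits. Of these 4, Myc (7 against 0) and Ccne2 could be compared only through the EpiSC list, so the minimum fixed their direction too. Ccnd2 in Nanog-/- ESCs (15 against 23) no longer passed 2-fold.

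**Figure D3:**
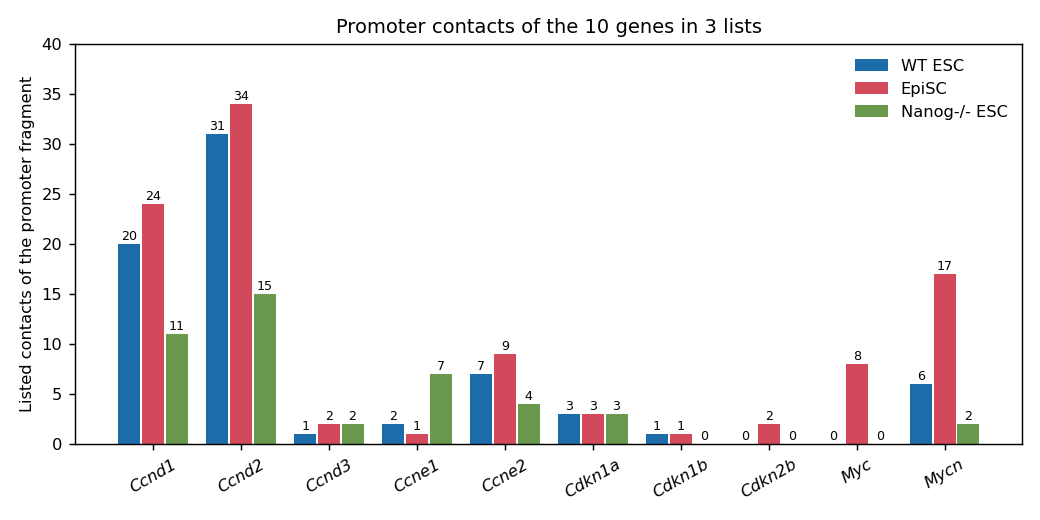
Number of listed contacts (y axis, from 0) of the promoter fragment of each gene (x axis) in the lists of WT ESCs, EpiSCs and Nanog-/- ESCs, with the number over each bar. Ccnd2 and Ccnd1 hold most contacts in each list, and the bars of Myc and Cdkn2b stand in EpiSCs alone.

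Ccnd2 had 31, 34 and 15 contacts, in the same order of states. All lay upstream of the gene in every list, mostly in an intergenic stretch that runs to Parp11. Of the baits with 10 or more contacts, 14.6%, 21.9% and 9.37% had all of them on 1 side. The contact with the highest score joined the Ccnd2 bait to that of Parp11 (chr6:127446292-127448701, exonic, 298 kb away), which had 40 reads in WT ESCs (score 28.8), 37 in EpiSCs (score 36.3) and 25 in Nanog-/- ESCs (score 27.9). Parp11 RNA read 3.05, 9.02 and 3.97 RPKM. The 199-base fragment printed above was read 11, 16 and 8 times, with scores of 5.10, 14.2 and 5.46. Of the 31 WT ESC contacts of Ccnd2, 24 (77.4%) were also in the EpiSC list and 12 (38.7%) in the Nanog-/- list. With scores of 7 or more only, Ccnd2 had 11, 23 and 8 contacts, so that its number in EpiSCs, 1.1 times that of WT ESCs in the full lists, then passed 2-fold. Over the 4382 baits that could be compared at those scores, 17.2% had more contacts in EpiSCs by 2-fold and 33.2% fewer.

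Ccnd1 had 20, 24 and 11 contacts, upstream of the gene except for 1 in Nanog-/- ESCs, with the Fadd promoter 354 kb downstream (6 reads). The upstream contacts lay 181 to 393 kb away and gathered over Tpcn2, a two-pore channel gene. The strongest was a Tpcn2 intron fragment (chr7:145241845-145245275, 307 kb away) which was read 19 times in WT ESCs (score 20.5), 16 times in EpiSCs (score 22.7) and 12 times in Nanog-/- ESCs (score 16.2). Around it, 8 fragments in direct sequence were contacted in EpiSCs, against a longest run of 6 in WT ESCs and 4 in Nanog-/- ESCs. A nearby fragment (chr7:145228930-145229740, 293 kb away) had 13 reads in EpiSCs and 7 in Nanog-/- ESCs and was not in the WT ESC list. Held to equal list sizes, Ccnd1 had 11, 22 and 11 contacts, so that the lower number in Nanog-/- ESCs was not seen at that size. Ccnd1 RNA was lower in those cells.

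Ccnd3, whose bait lies in a super-enhancer (SE, a dense cluster of enhancers, defined in ESCs by earlier work that the study used), had 1, 2 and 2 contacts. The one in all 3 lists joined it to the Bysl promoter fragment (chr17:47608138-47612499, 103 kb downstream, past the end of Ccnd3), with 16, 16 and 13 reads. Bysl, a ribosome assembly gene, read 59.2, 44.9 and 73.3 RPKM. The other contacts were with Guca1b in EpiSCs (6 reads) and Usp49 in Nanog-/- ESCs (4 reads).

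Ccne1 had 2, 1 and 7 contacts. Those in Nanog-/- ESCs were short, with a median distance of 12.2 kb, and 3 of them touched exons of Ccne1 itself. The contact shared by WT and Nanog-/- ESCs (chr7:38098218-38099397, 10.5 kb away) had 51 and 40 reads. With scores of 7 or more only, Ccne1 had 2, 0 and 1 contacts, so that the higher number in Nanog-/- ESCs rested on scores near the limit. The only EpiSC contact was with the bait named C80913, where the gene annotation gives Uri1 (88.8 kb away, 9 reads). C80913 RNA read 132, 43.5 and 141 RPKM, and Ccne1 194, 47.8 and 302.

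Ccne2 had 7, 9 and 4 contacts. The one in all lists was with the bait named 2310030N02Rik, where the gene annotation gives Ndufaf6 (chr4:11074580-11076489, 116 kb upstream), with 16, 22 and 8 reads. A contact with the promoter of Trp53inp1, a p53 target, was listed in WT ESCs (9 reads, score 5.36, 33.3 kb). Contacts with the promoters of Plekhf2 (8 and 8 reads) and 2610301B20Rik (7 and 8 reads) were in WT ESCs and EpiSCs. The one contact of any member with another chromosome joined Ccne2 to an exon of Srsf7 on chromosome 17 in EpiSCs, with 3 reads and a score of 8.82.

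The CDK inhibitors had few contacts. Cdkn1a had 3 in each list, of which 1 was shared (chr17:29052230-29053361, 35.4 kb upstream, 18, 12 and 17 reads). Other contacts in EpiSCs and Nanog-/- ESCs lay over Trp53cor1, the gene of a noncoding RNA (lincRNA-p21) next to Cdkn1a, at 30.4 kb (14 reads) and 27.2 kb (11 reads), and a WT ESC contact lay in an intron of the same gene at 20.9 kb (22 reads). The remaining contact of each list lay elsewhere. It was at an exon of Srsf3 in EpiSCs (45.0 kb, 10 reads), at an exon of Rab44 in Nanog-/- ESCs (60.1 kb, 7 reads) and intergenic in WT ESCs (151 kb, 7 reads). Cdkn1b had 1, 1 and 0 contacts, with the promoters of Ddx47 in WT ESCs (8 reads, 95.7 kb) and Gpr19 in EpiSCs (13 reads, 18.7 kb).

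Cdkn2b had contacts in EpiSCs only, where its RNA was also highest. They were at chr4:89273793-89274417 (14 reads, score 11.8, 36.1 kb, intergenic) and chr4:89276091-89276620 (13 reads, score 9.85, 33.8 kb, in a Cdkn2a intron). The same fragments were contacted in EpiSCs by the bait of Cdkn2a, which encodes p16 and p19ARF, with 19 and 22 reads and scores of 5.63 and 5.71. In Nanog-/- ESCs the Cdkn2a bait contacted the latter with 20 reads and a score of 5.14. Reads of Cdkn2a and Cdkn2b may be hard to assign, since the genes arose by duplication and the counting step is not given in the sources used here.

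Myc had no listed contact in WT or Nanog-/- ESCs and 8 in EpiSCs, all downstream, where the noncoding gene Pvt1 lies. They had 5 to 9 reads and scores of 5.05 to 8.70. The nearest 3 lay in Pvt1 introns, at 144, 343 and 353 kb, and the others were intergenic. The farthest lay at 809 kb, at the SNORA17.501 bait (6 reads, score 8.02), and at 819 kb (5 reads, score 6.66), and were the only member contacts over 800 kb. Counted from each bait, 1.77% of all contacts in the EpiSC list were that long, against 1.35% in WT ESCs and 0.388% in Nanog-/- ESCs. Myc RNA was highest in Nanog-/- ESCs, at 72.2 RPKM, where no contact was listed. With scores of 7 or more only, 3 of the 8 contacts were left.

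Mycn had 6, 17 and 2 contacts, while its RNA was lowest in EpiSCs. The contact in all 3 lists was with the bait of U6.473 (chr12:12690069-12705604, 245 kb downstream), with 8, 8 and 6 reads. The bait of Mycn lies in an SE annotated in ESCs, and adjoining fragments in 2 further SEs assigned to Mycn (chr12:12787469-12787898 and chr12:12787899-12789375) lay 155 and 154 kb downstream. WT ESCs had listed contacts with both (5 and 6 reads), Nanog-/- ESCs with the second (4 reads) and EpiSCs with neither. These were the only partners of any member among the 231 SEs defined in ESCs. The SEs that the study called in EpiSCs were not searched here. A contact with Rpl36-ps3 at 32.8 kb was listed in WT ESCs only (14 reads), and Rpl36-ps3 RNA read 80.5, 0.81 and 65.6 RPKM. In EpiSCs, 15 of the 17 contacts were in no other list, against 46.7% of all pairs listed there. These 15 had 4 to 7 reads and lay at 177 to 614 kb, including 4 fragments in direct sequence at 510 to 531 kb. With adjoining fragments joined, the 17 contacts made 10 separate stretches. With scores of 7 or more only, Mycn had 3, 6 and 1 contacts.

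**Figure D4:**
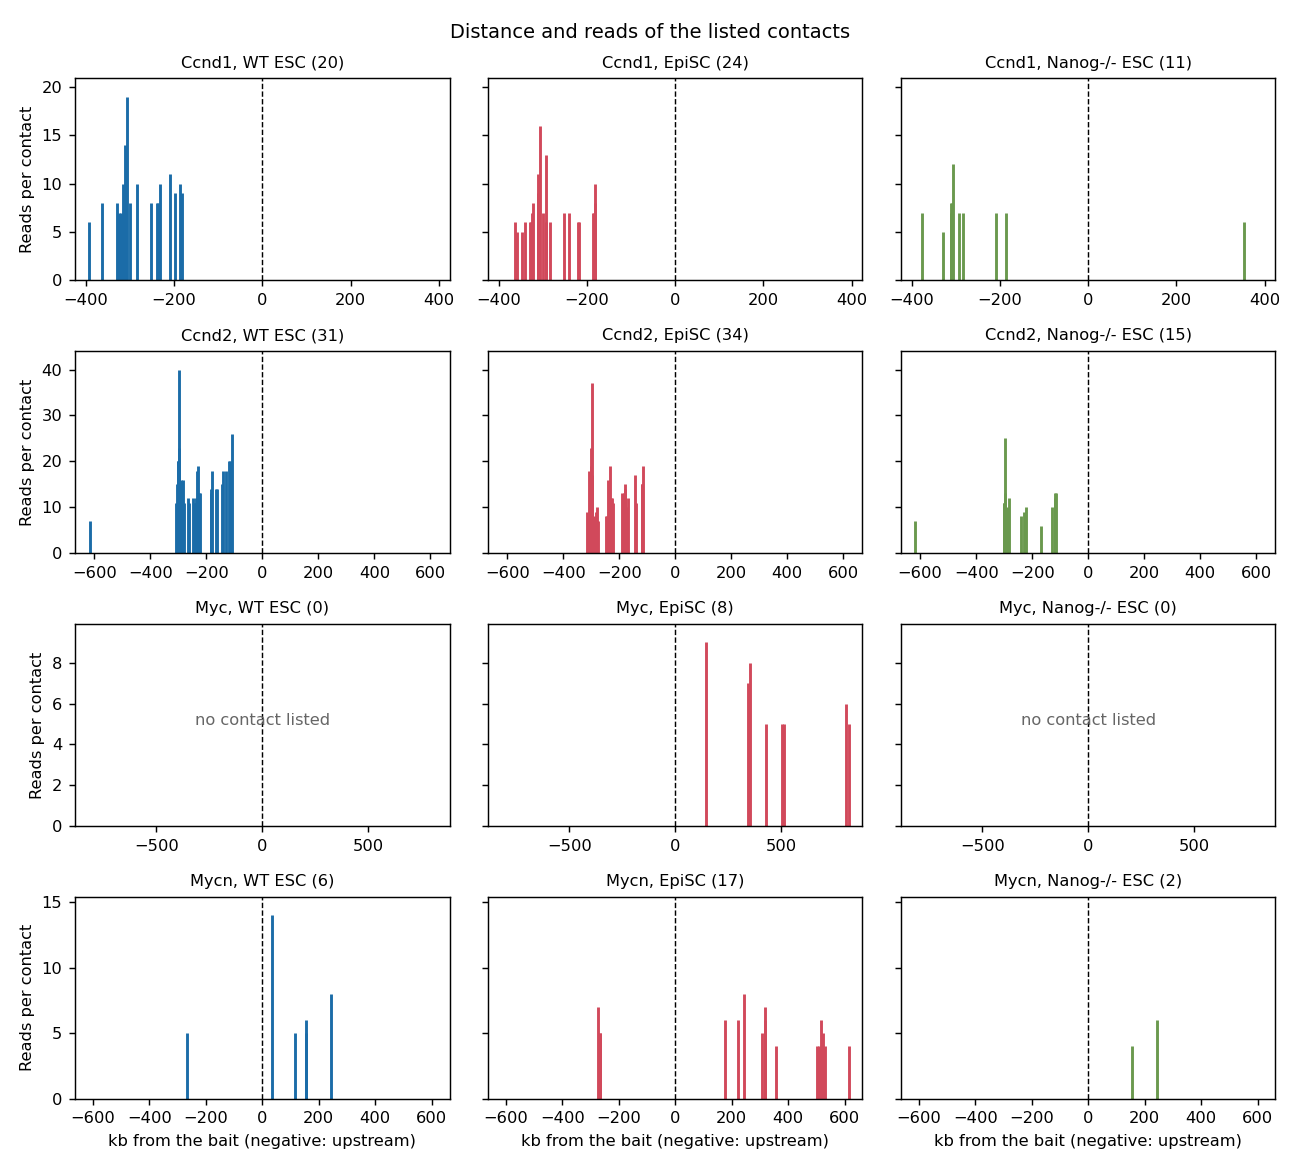
Listed contacts of Ccnd1, Ccnd2, Myc and Mycn (rows) in WT ESCs, EpiSCs and Nanog-/- ESCs (columns), each as a line at its distance from the bait in kb (x axis, negative for upstream of the gene) with its read pairs (y axis, from 0). Ccnd1 and Ccnd2 contacts keep to the upstream side except for 1 Ccnd1 contact in Nanog-/- ESCs. Myc has contacts in EpiSCs alone, and those of Mycn reach 614 kb there.

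Of the 71 WT ESC contacts of the members, 43 (60.6%, 95% Wilson interval 48.9 to 71.1) were also in the EpiSC list, against 39.6% of all 100492 pairs. This rested on Ccnd1 and Ccnd2, since of the 20 contacts of the other members 7 (35.0%, 18.1 to 56.7) were shared. In the Nanog-/- list, 27 of the 71 (38.0%, 27.6 to 49.7) were found, against 41.8% of all pairs. With equal list sizes the share in the Nanog-/- list was 53.1%, against 48.1% of all pairs, so that the order turned. The intervals cover counting error only, and contacts of 1 bait with adjoining fragments are not independent. Pairs in both lists had fewer reads outside WT ESCs: the median ratio to WT ESC reads was 0.86 in EpiSCs and 0.65 in Nanog-/- ESCs for members, against 0.83 and 0.62 for all pairs.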

How the data were processed

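RNA-seq and PCHi-C of WT ESCs, EpiSCs and Nanog-/- ESCs were used; the ChIP-seq samples were not analysed here. The authors deposited RPKM as the median of each group, with Trim Galore, TopHat and DESeq2 named in the submitters' processing notes; the depth of the RNA libraries is unknown. Their fold changes and p-values in the same table were not used. For PCHi-C, the authors mapped reads with HiCUP (Bowtie 1.1.0, GRCm38) and combined the biological replicates, and deposited read counts and the CHiCAGO score per contact. A medians-only table and combined lists leave no replicate error, so that all comparisons are descriptive.

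A pseudocount of 1 RPKM was added, EpiSC medians were divided by the median ratio over genes of 1 RPKM or more, and 2-fold was the threshold. Pairs listed from both ends were counted once. Distances run between fragment midpoints, and GENCODE vM21 gave exons and introns. SE fragments were those that the study listed for 231 SEs defined in ESCs by earlier work. Calculations used Python 3.11.15, pandas 2.3.3, scipy 1.17.1 and pysam 0.24.0, and were tested on simulated data. Named genes were all members, the list genes past 2-fold, and the 3 genes nearest to the member that differed most in EpiSCs, to Myc and to Mycn. Max, Cdkn2a and partner genes were named as neighbours or partners. Cdkn1c, Cdkn2c and the marker Dnmt3b were named because they were lower in EpiSCs, unlike others of their lists. The members and lists were chosen with earlier results of these data known. List genes without a row in the table were not analysed here.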

Additional observations from a re-analysis of the deposited data

How the results depend on the processing

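The 5 members past 2-fold in EpiSCs were also 5 with a pseudocount of 0.1 RPKM, where 36.9% of all genes passed, against 28.4%. They were 5 with scaling set by genes of 10 RPKM or more, and 8 without scaling, where 50.7% of all genes passed. The filter on low values was not applied to the members. Leaving it out could therefore change only the share of all genes, which was then 20.1%. The 2 members past 2-fold in Nanog-/- ESCs were 2 with scaled medians and 3 with the smaller pseudocount. Of all genes, 4.27% and 9.51% passed in these settings, against 4.3% as reported. No difference past 2-fold turned its direction. With scores of 7 or more, member contacts numbered 30 (WT ESCs), 50 (EpiSCs) and 21 (Nanog-/- ESCs). They stayed within 1.5 times of the full numbers with the listed direction only, within chromosomes and with equal list sizes. The share of WT ESC contacts also in the EpiSC list was 66.2% when a directly adjoining fragment also counted, 70.0% for WT ESC contacts with scores of 7 or more (57.8% for all pairs) and 65.3% with equal list sizes (42.2% for all pairs), against 60.6% as reported. The share in the Nanog-/- list was 57.7% when a directly adjoining fragment also counted, against 38.0% as reported. It was 66.7% for WT ESC contacts with scores of 7 or more (60.4% for all pairs) and 53.1% with equal list sizes (48.1% for all pairs). Shares with adjoining fragments were not computed for all pairs, so 66.2% and 57.7% cannot be set against other promoters. No paired analysis was possible because the deposited tables hold 1 value per state and no replicate columns, and for the same reason no replicate could be left out. Small read numbers, 2 or more per contact, limit what an absent contact can show.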
